A study of Homo sapiens with 22 samples.

Results

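The loci of 38 genes of mitosis and the kinetochore, out of 20162 protein-coding genes, were followed through 22 lists of bound or open chromatin regions from prostate cancer cell lines. The members were given by name, and a region was counted for a gene when it overlapped the gene body (GENCODE 44, hg19) extended by 50 kb on each side. Regions within 1 kb of any transcription start site of the gene were counted as own-promoter regions, those within 1 kb of the start of another protein-coding gene as other-promoter regions, and the rest as distal. A region was called kept when a second list overlapped it by at least 1 bp. None of the 38 windows overlapped another, so no region was counted for 2 members. CEP55, INCENP, CDK1, NDC80 and ERCC6L were chosen by the study for site-directed ChIP in these same cells, so their regions are not independent evidence, and values for these 5 and for the other 33 are given apart where they matter.

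The kinetochore is the protein assembly that ties each centromere to spindle microtubules. The spindle checkpoint holds cells until every kinetochore is attached, the chromosomal passenger complex corrects wrong attachments, and cytokinesis then separates the daughter cells. Most of these genes are transcribed in G2 and M phase, under control of the DREAM, B-MYB and FOXM1 complexes, which act at CHR elements (TTTGAA). Their promoters often hold CCAAT boxes too. FOXA2 is a forkhead pioneer factor that opens enhancers, and JUN and FOSL1 are subunits of AP-1, which binds TGAGTCA and TGACTCA.

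Each list came from 1 ChIP-seq or ATAC-seq sample, and 20 of the 21 groups held 1 list. PC3 is an androgen receptor-negative line, NCI-H660 a neuroendocrine line and LNCaP an androgen receptor-positive line. FOXA2 was mapped in PC3 under vehicle, 10 µM ORY-1001 or 0.5 µM C12 for 4 h, and in NCI-H660 under vehicle or 10 µM ORY-1001 for 4 h, both compounds being LSD1 inhibitors. JUN was mapped under control siRNA (siNC) or siFOXA2 in PC3 and NCI-H660 and under siNC or siFOXA1 in LNCaP, and FOSL1 under siNC or siFOXA2 in PC3. JUN was also mapped in stable LNCaP lines made by lentivirus and puromycin that carry 3xFLAG-FOXA2 (FOXA2OE) or its K265R form (FOXA2K265R), and FOXA2 in FOXA2OE. The sample titled FOXA2K265R carries FOXA2OE in its cell-line label, and the title was followed. Further lists gave ATAC-seq in PC3 and NCI-H660, H3K27ac in PC3, H3K4me2 in NCI-H660, and FOXA2 in PC3 from 2 ChIPs whose antibody the labels do not give, called other FOXA2 ChIPs here. All of these further lists, and the lists of FOXA2OE and FOXA2K265R, are labelled vehicle. With 1 list a group no p-value can be given, so shares carry 95% Wilson intervals and ratios of counts carry exact 95% intervals, both covering counting error only. Fewer cells with a bound site and less signal per cell cannot be told apart, and a list does not show the level of FOXA2 or FOXA1, so the knockdowns were not checked.

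The lists held from 1538 to 210960 regions, and 20 of them carried a score. Its minimum was 13 in 17 lists, which reads as 10 times the negative log10 of the peak caller's q-value, and a stronger region is one with a higher score here. In NCI-H660 ATAC-seq 6 of 6 neuroendocrine marker genes had an open promoter, against 4 of 6 in PC3, where CHGA and NEUROD1 had none. The 5 markers listed for PC3 were open in both lines, 5 of 5 in each, and did not separate them. The JUN lists of PC3 and NCI-H660 and the ATAC lists of both lines came from different peak-calling folders. So did the JUN lists of parental LNCaP, FOXA2OE and FOXA2K265R. Line or construct and folder cannot be told apart in those comparisons. The FOXA2OE FOXA2 list held exactly 2500 regions without scores, of which 1 lay at a member.

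The sequences that carry the FOXA2 and JUN results are printed first. Each is the central 200 bp of a region, on the plus strand of hg19, with an AP-1 word (TGAGTCA or TGACTCA) or a forkhead word (TATTTAC or TATTTAT or TATTTGC or TATTTGT or TGTTTAC or TGTTTAT or TGTTTGC or TGTTTGT, 8 words) in capitals on either strand. The first 4 are the FOXA2 regions of the PC3 vehicle list nearest to NDC80, CDK1, CEP55 and ERCC6L.
NDC80 intron, chr18:2592839-2593038: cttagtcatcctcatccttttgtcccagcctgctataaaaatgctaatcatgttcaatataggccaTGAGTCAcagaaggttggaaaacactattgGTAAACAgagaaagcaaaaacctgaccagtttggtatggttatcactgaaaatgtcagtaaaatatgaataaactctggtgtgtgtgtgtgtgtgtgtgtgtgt
CDK1 downstream, chr10:62561471-62561670: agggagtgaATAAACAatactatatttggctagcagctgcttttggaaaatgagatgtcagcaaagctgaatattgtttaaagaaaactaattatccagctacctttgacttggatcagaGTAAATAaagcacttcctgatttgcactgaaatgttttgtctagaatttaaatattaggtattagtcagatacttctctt
CEP55 upstream, chr10:95242308-95242507: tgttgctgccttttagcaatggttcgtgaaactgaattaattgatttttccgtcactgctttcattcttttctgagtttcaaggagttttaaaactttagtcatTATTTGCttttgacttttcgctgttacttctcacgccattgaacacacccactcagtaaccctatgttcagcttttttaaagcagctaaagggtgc
ERCC6L intron, chrX:71456732-71456931: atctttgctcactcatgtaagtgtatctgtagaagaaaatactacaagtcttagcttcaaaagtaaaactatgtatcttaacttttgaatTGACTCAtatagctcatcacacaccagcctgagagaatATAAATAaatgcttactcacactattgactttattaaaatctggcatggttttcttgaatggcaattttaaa
The NDC80 and ERCC6L windows held both kinds of word, with no overlap between them, and the CDK1 and CEP55 windows held forkhead words and no AP-1 word. The NDC80 window had its AP-1 word at -31 and its forkhead word at -1 bases from the centre.

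The next sequences are the strongest FOXA2 region kept under both LSD1 inhibitors (ECT2), the strongest one absent under both (CEP55) and the strongest FOXA2 region of NCI-H660 that PC3 lacked (CCNB2).
ECT2 promoter, chr3:172468181-172468380: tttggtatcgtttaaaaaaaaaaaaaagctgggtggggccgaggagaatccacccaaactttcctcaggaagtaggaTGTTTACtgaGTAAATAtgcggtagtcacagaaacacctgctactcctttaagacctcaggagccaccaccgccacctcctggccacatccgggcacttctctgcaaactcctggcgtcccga
CEP55 distal, chr10:95308526-95308725: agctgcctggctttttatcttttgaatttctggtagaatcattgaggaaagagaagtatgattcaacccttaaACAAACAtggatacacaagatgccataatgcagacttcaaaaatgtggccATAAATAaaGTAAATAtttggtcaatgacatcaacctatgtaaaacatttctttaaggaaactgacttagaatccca
CCNB2 window, intron of MYO1E, chr15:59459027-59459226: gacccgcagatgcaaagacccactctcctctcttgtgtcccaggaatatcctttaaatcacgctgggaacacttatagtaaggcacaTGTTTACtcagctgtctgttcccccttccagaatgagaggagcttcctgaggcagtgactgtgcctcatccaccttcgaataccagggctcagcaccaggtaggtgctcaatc
All 3 windows held forkhead words and none an AP-1 word. The ECT2 window had 2, TGTTTAC and GTAAATA, both before its centre.

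For JUN, the strongest regions kept under siFOXA2 in PC3 (BUB1B) and in NCI-H660 (TPX2) are shown.
BUB1B window, intron of PAK6, chr15:40559117-40559316: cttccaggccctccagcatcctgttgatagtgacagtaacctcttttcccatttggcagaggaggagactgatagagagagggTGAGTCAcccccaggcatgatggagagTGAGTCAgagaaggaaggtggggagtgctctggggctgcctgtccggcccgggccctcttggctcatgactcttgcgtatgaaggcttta
TPX2 downstream, chr20:30424082-30424281: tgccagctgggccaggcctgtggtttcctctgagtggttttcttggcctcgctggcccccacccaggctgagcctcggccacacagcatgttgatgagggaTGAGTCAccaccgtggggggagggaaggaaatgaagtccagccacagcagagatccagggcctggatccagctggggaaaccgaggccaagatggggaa
The BUB1B window held 2 AP-1 words, one on each side of the centre, and the TPX2 window 1, at 4 bases from it. Each window was also divided into 8 pieces of 25 bases that were looked up in the whole genome. In the BUB1B, TPX2, CDK1, CEP55, ERCC6L, ECT2 and CCNB2 windows every piece occurred at 1 place, and in the NDC80 window 7 of 8 did. A window is called repeated sequence here when its median piece had more than 10 copies, and reads from such a place and from its copies cannot be told apart. This was so of an intronic SPC25 region that was called in 14 of the 22 lists.

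FOXA2 in PC3 lay mostly away from promoters, at the members as over all genes. The vehicle list held 45 regions at the 38 members, of which 41 were distal, 3 lay at other promoters and 1 lay at an own promoter, that of ECT2. Over all genes 23951 of 26385 were distal, with a region counted once for each gene. An own-promoter region was found at 2.63% of members and 4.88% of all genes. A distal region was found at 23 of 38 members (60.5%, 44.7 to 74.4), against 49.7% of all protein-coding genes. Per 100 kb the members held 0.793 distal regions and all genes 0.705, a ratio of 1.12 (95% interval 0.81 to 1.53). The interval holds 1, so the members' density could not be told from that of all genes.

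Among the 9 centromere and kinetochore genes, 7 held 17 distal FOXA2 regions in PC3. NUF2, a subunit of the NDC80 complex that grips microtubules, held the most of any member, with 6 regions and a highest score of 460 in the vehicle list. SPC25, another subunit, held 3 regions with a highest score of 230, at the repeated-sequence site named above. NDC80 itself held 2, an intronic region scoring 614 and one beyond the gene scoring 520. CENPF, a large coiled-coil protein of the outer kinetochore, held regions scoring 432 and 19, and CENPE, a kinesin that carries chromosomes to the equator, held regions scoring 54 and 149. DSN1, part of the MIS12 complex, held 1 scoring 122, and CENPA, the centromeric histone, and KNL1, the checkpoint scaffold, held none.

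All 3 cytokinesis genes held distal FOXA2 regions in PC3, 7 in sum. CEP55, which brings the abscission machinery to the midbody, held 4 distal regions scoring 45, 309, 591 and 510 and a region scoring 217 at another promoter, centred at -13961 bp from its start. ECT2, the exchange factor that activates RhoA at the cleavage site, held the strongest member region, scoring 3198 and centred at -191 bp from its start, which was above 99.8% of the regions of the list. It also held distal regions scoring 126 and 65. ANLN, the anillin scaffold of the contractile ring, held an intronic region scoring 266.

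Spindle checkpoint genes held 7 distal FOXA2 regions in PC3, in 5 of 6 genes, with BUB3 at 40 and 379, MAD2L1 at 76 and 195, BUB1 at 160, TTK at 76 and CDC20 at 138. BUB1B held none. Of the 6 kinase and cyclin genes 4 held 1 each, with CDK1 at 300, CCNA2 at 149, PLK1 at 131 and AURKA at 45, and CCNB1 and CCNB2 held none. TPX2, which nucleates spindle microtubules and activates AURKA, held 3 regions scoring 564, 111 and 67, and KIF23, a kinesin of the central spindle, held 1 scoring 80. The other motors KIF11, KIF2C, KIF20A and the bundling protein PRC1 held none. In the chromosomal passenger complex only BIRC5 held a distal region, scoring 442, in an intron of AFMID, while AURKB had a region scoring 360 at the PER1 promoter and CDCA8 and INCENP had none. ERCC6L, the PICH translocase, held 1 scoring 127, and TOP2A, MKI67 and FOXM1 held none. The FOXA2 region nearest to the INCENP start lay 78.0 kb away, outside its window, with a score of 495.

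**Figure D1:**
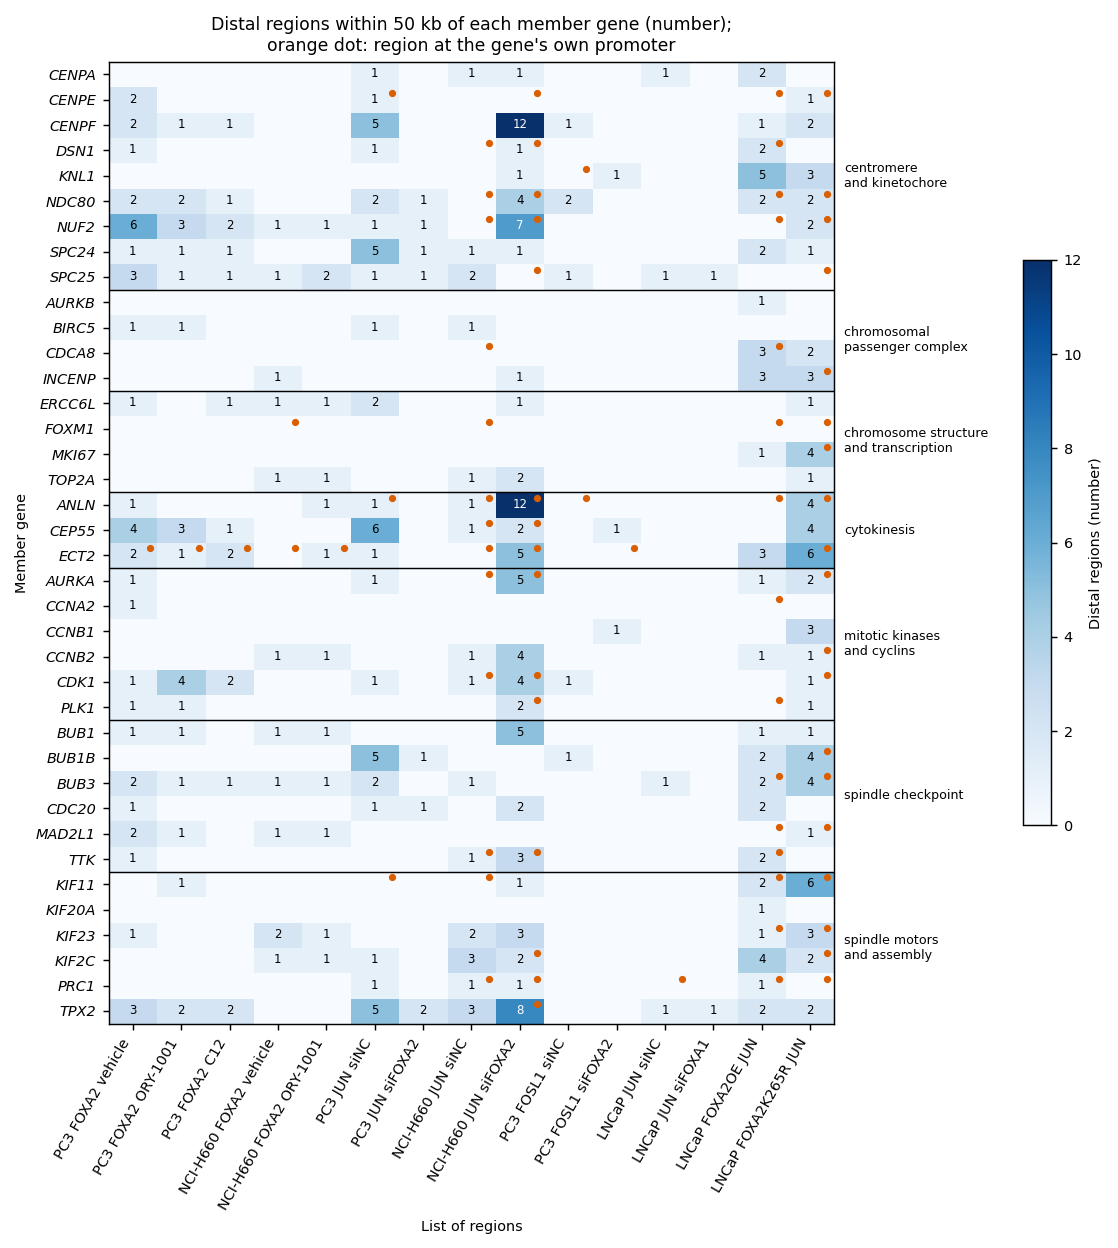
Number of distal regions within 50 kb of each of the 38 members (rows, grouped by role) in the 15 lists of FOXA2, JUN and FOSL1 that have a control or contrast (columns), with colour for the number and an orange dot for a region at the gene's own promoter. The highest cells are CENPF and ANLN with 12 regions each under siFOXA2 in the NCI-H660 JUN list.

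Over members the nearest PC3 FOXA2 region lay a median of 19.9 kb from the start site, against 56.4 kb over all genes, but the members' regions were not stronger, with a median score of 138 against 153. Of the 45 regions 40 (88.9%) lay in open chromatin of PC3 (all genes 90.2%) and 21 (46.7%, 32.9 to 60.9) in H3K27ac (all genes 60.7%). JUN under siNC overlapped 19 of 45 (42.2%), against 43.6% over all genes. The other FOXA2 ChIPs of PC3 held 180 and 153 regions at the members and covered 44 and 43 of the 45. Their distal density was 1.24 (1.05 to 1.45) and 1.35 (1.13 to 1.59) times that of all genes, so in these longer lists the members lay above all genes beyond counting error. The same ratio was 1.10 (1.0002 to 1.21) for open chromatin of PC3 and 1.17 (0.997 to 1.35) for H3K27ac. The part of open chromatin in the FOXA2 ratios was not tested.

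Among other gene lists of the cell cycle, 37 of 71 further mitotic genes (52.1%) and 27 of 48 DNA replication genes (56.3%) held a distal FOXA2 region in PC3. Both shares lay between that of all genes and that of the members. Of the 5 members chosen by the study 4 held a distal FOXA2 region, INCENP being the exception, and of the other 33 members 19 did (57.6%).

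In NCI-H660 the FOXA2 regions at mitotic genes were fewer and nearly all at other places than in PC3. The vehicle list held 15 regions at members, 12 of them distal, at 11 of 38 genes (28.9%, against 33.4% of all genes), and the distal density was 0.68 (0.35 to 1.19) times that of all genes. Own promoters held FOXA2 at 2 members (5.26%), ECT2 with a score of 472 and FOXM1, the forkhead activator of G2 genes, with 65. All genes had 3.20% here and 4.88% in PC3, where 1 member (2.63%) had one. KIF23 held 2 distal regions, scoring 109 and 94. CCNB2, a B-type cyclin, held the strongest distal one, scoring 347, and MAD2L1, the checkpoint protein MAD2, one scoring 291. ERCC6L followed at 210, BUB3 at 121, NUF2 at 116, TOP2A at 94, SPC25 at 89, INCENP at 80, KIF2C at 80 and BUB1 at 27. KIF20A held a region at another promoter scoring 101.

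Only 2 of the 45 PC3 regions at members (4.44%, 1.23 to 14.8) were overlapped by a FOXA2 region in NCI-H660, those at the ECT2 promoter and in NUF2, against 10.6% over all genes. Genes with a distal region in either list were then sorted by a 2-fold difference in number. NCI-H660 had at least 2-fold fewer than PC3 at 20 of 27 members and more at 5, against 60.2% and 22.8% of all genes tested. NUF2 went from 6 to 1, CEP55 from 4 to 0, SPC25 from 3 to 1 and TPX2 from 3 to 0. Those with more were INCENP, CCNB2, KIF2C and TOP2A, from 0 to 1 each, and KIF23, from 1 to 2. The NCI-H660 list was shorter than the PC3 list, 11886 against 24038 regions, and with equal numbers of the strongest regions from each the ratio of member regions, NCI-H660 over PC3, was 0.79 in place of 0.33.

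**Figure D2:**
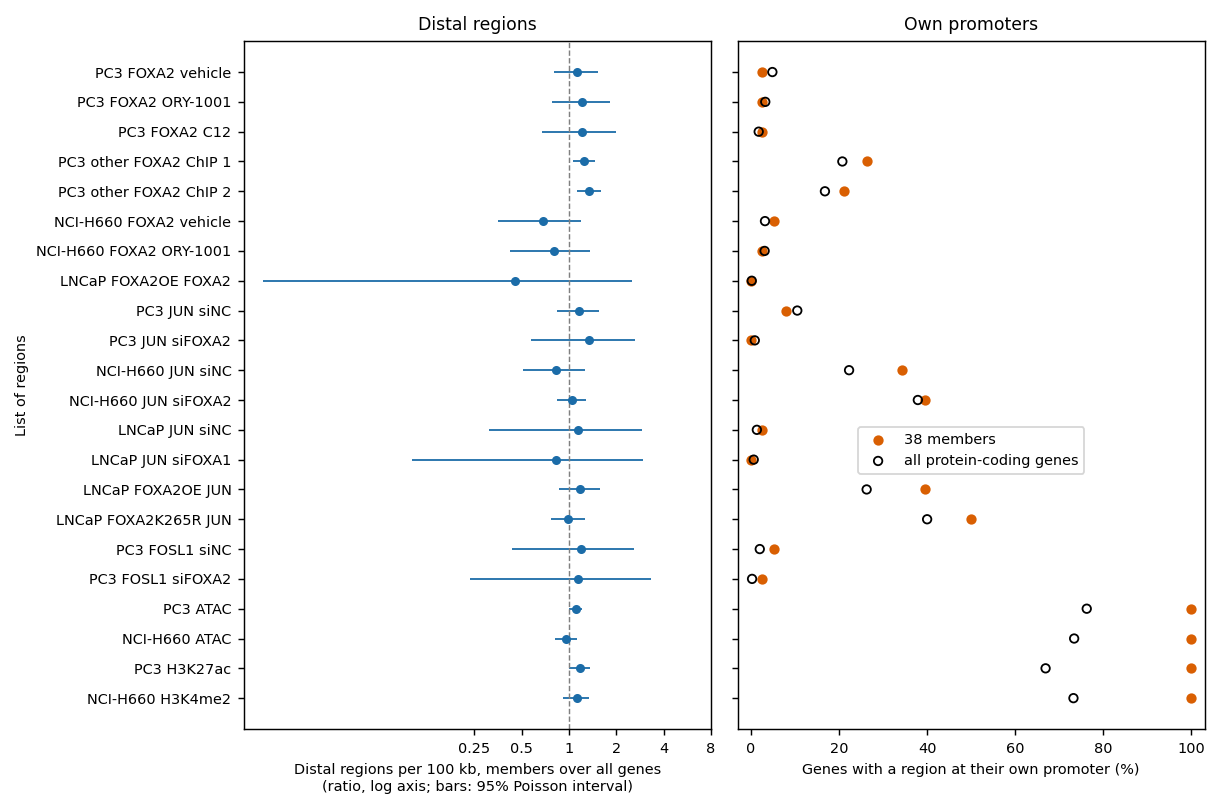
Distal regions per 100 kb at the 38 members over those at all protein-coding genes (left, log axis, bars are exact 95% Poisson intervals) and share of genes with a region at their own promoter (right, members filled, all genes open) for each of the 22 lists. The left bars cross 1 in most lists, and on the right all members are marked in the ATAC and histone lists.

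LSD1 inhibition left fewer FOXA2 regions at the members of PC3 after 4 h, at about the share seen over all genes. From 45 regions under vehicle the count went to 27 under ORY-1001 and 17 under C12, which is 0.60 (0.36 to 0.99) and 0.38 (0.20 to 0.67) of vehicle. Under ORY-1001 20 of 45 regions were kept (44.4%, 30.9 to 58.8), against 37.4% over all genes. Under C12 14 of 45 were kept (31.1%, 19.5 to 45.7), against 29.5%. Both intervals hold the share of all genes. The 2 inhibitors were used at different doses and share the vehicle list, so their values stand side by side only. With equal numbers of the strongest regions from each list, 62.5% and 56.3% of vehicle regions were kept under ORY-1001 and C12, and the ratios became 1.12 and 1.06. That setting fixes list length by construction, and the part of list length in the smaller counts was not tested.

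Counting distal regions gene by gene, 15 of 24 members had at least 2-fold fewer under ORY-1001 and 2 had more, against 57.2% and 9.18% of all genes tested. Under C12 18 of 23 had fewer and 1 had more, against 75.1% and 2.11%. NUF2 went from 6 to 3 under ORY-1001 and to 2 under C12, and SPC25 from 3 to 1 under both. CEP55 went from 4 to 3 under ORY-1001 and to 1 under C12. CDK1, the kinase that drives entry into mitosis, went the other way, from 1 region under vehicle to 4 under ORY-1001 and 2 under C12. Its vehicle region, scoring 300, was absent under both, and the 4 under ORY-1001 scored 43, 35, 38 and 22. A region in an intron of CDK1 was called under both inhibitors, with scores of 43 and 38. Among the 5 genes chosen by the study 1 of 4 tested had fewer under ORY-1001 and 1 more, against 14 and 1 of 20 among the other members.

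The regions that stayed scored lower. Of the 20 kept under ORY-1001 17 had a lower score, with a median ratio to vehicle of 0.65 (all genes 0.62), and of the 14 kept under C12 all had a lower score, with a median ratio of 0.39 (all genes 0.42). Regions that were absent had been weaker under vehicle, with median scores of 101 under ORY-1001 against 369.5 for those kept. At the ECT2 promoter the score was 3198 under vehicle, 2239 under ORY-1001 and 1251 under C12. At NDC80 the intronic region scored 614, 142 and 164 in the same order. The CENPF region scored 432, 177 and 151, and the main NUF2 region 460, 63 and 81. The NUF2 and NDC80 sites thus kept less of their score than ECT2 and CENPF under both inhibitors. The BUB3 region scored 379, 268 and 228. At the main TPX2 region the scores were 564, 396 and 476.

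Not every kept region was lower. The CEP55 region near FFAR4 scored 510 under vehicle, 674 under ORY-1001 and 230 under C12, and the SPC25 intronic region, in repeated sequence, scored 230, 262 and 214. The AURKB window region at the PER1 promoter scored 360 and 416 under vehicle and ORY-1001. The CEP55 region scoring 591, the ANLN region scoring 266 and both CENPE regions were absent under both inhibitors. ERCC6L kept its region under C12 with a score of 33 but not under ORY-1001.

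FOXA2 regions shared with JUN had the higher kept shares, with intervals that overlap those of the other regions. Under ORY-1001 12 of 19 regions that overlapped JUN were kept (63.2%, 41.0 to 80.9) and 8 of 26 that did not (30.8%, 16.5 to 50). Under C12 the shares were 10 of 19 (52.6%, 31.7 to 72.7) and 4 of 26 (15.4%, 6.15 to 33.5). Over all genes they were 53.7% and 24.9% under ORY-1001 and 45.4% and 17.2% under C12. The members' regions shared with JUN also scored higher under vehicle, with a median of 309 against 104.5, and the part of the score in the difference was not tested.

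In NCI-H660 the FOXA2 regions at members hardly differed in number under ORY-1001, with 15 and 14. Of 15 regions 10 were kept (66.7%, 41.7 to 84.8), against 67.0% over all genes. Distal regions were at least 2-fold fewer at 2 of 13 members, INCENP and KIF23, and more at 3, SPC25, ECT2 and ANLN, against 27% and 19.8% of all genes tested. The ECT2 promoter scored 472 and 458, the CCNB2 region 347 and 299, and the MAD2L1 region 291 and 254. ERCC6L showed a larger difference, 210 and 94, and the NUF2 region was higher, 116 and 138. The FOXM1 promoter region, 65 under vehicle, was absent under ORY-1001.

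**Figure D3:**
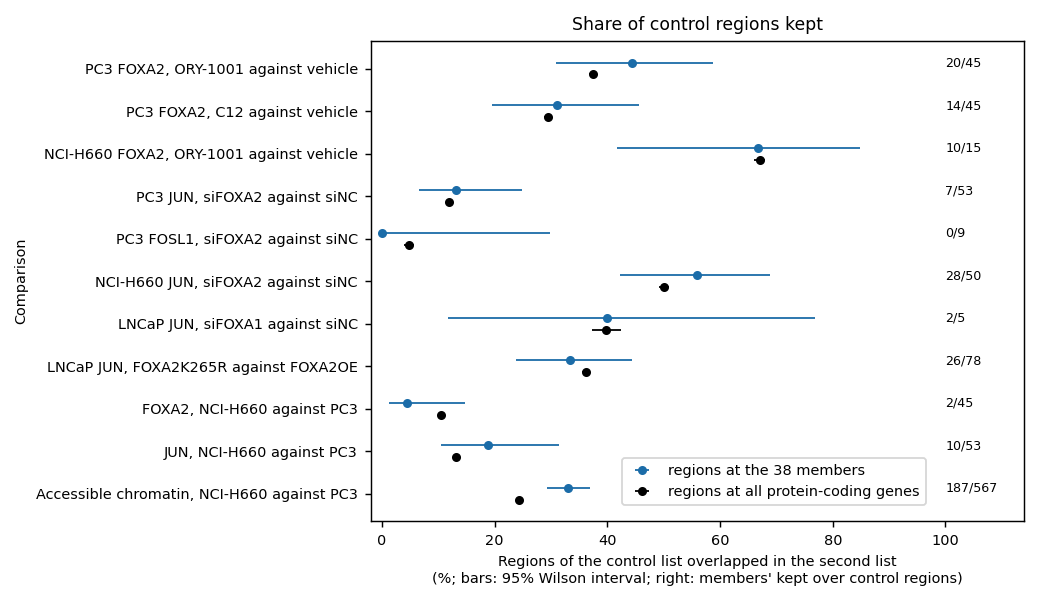
Share of the regions of the control list that the second list overlapped (%, with 95% Wilson intervals) at the 38 members (blue) and at all protein-coding genes (black) in the 11 comparisons, with the members' kept and control counts at the right. The members' intervals hold the all-gene value in 10 comparisons and lie above it for accessible chromatin, 33.0% against 24.3%.

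JUN in PC3 also lay mostly at distal regions of the members, and few of them were called under siFOXA2. The siNC list held 53 regions at members, 45 of them distal at 21 genes (55.3%, against 54.2% of all genes), and the density was 1.15 (0.84 to 1.55) times that of all genes. Own promoters held JUN at 3 members (7.89%, all genes 10.5%), with scores of 214 at ANLN, 58 at CENPE and 37 at KIF11, the kinesin that pushes spindle poles apart. Kinetochore genes held 17 distal regions in 8 of 9 genes, cytokinesis genes 8 in 3 of 3, spindle checkpoint genes 8 in 3 of 6 and spindle motor and assembly genes 7 in 3 of 6. Kinase and cyclin genes and chromosome structure genes held 2 each and passenger complex genes 1. Per 100 kb cytokinesis genes held 1.71, kinetochore genes 1.20, checkpoint genes 1.04 and motor and assembly genes 0.83, against 0.753 over all genes. Chromosome structure genes held 0.39, kinase and cyclin genes 0.29 and passenger complex genes 0.22. Differences between roles were not tested. FOXA2 overlapped 20 of the 53 (37.7%, all genes 41.3%) and FOSL1 4 (7.55%, all genes 9.34%). Open chromatin covered 52 (98.1%, all genes 97.0%) and H3K27ac 42 (79.2%, all genes 79.1%). The AP-1 word stood in the central window of 29 of 53 (54.7%), against 50.7% over all genes.

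Under siFOXA2 the PC3 JUN list held 8 regions at members, 0.15 of the siNC count. Of the 53 regions 7 were kept (13.2%, 6.55 to 24.8), against 11.9% over all genes. Distal regions were at least 2-fold fewer at 18 of 21 members and more at none, against 90% and 1.99% of all genes tested. CEP55 went from 6 distal regions to 0 and CENPF from 5 to 0. SPC24 and BUB1B, the checkpoint kinase BUBR1, went from 5 to 1, and TPX2 from 5 to 2. The share kept was 3 of 20 (15.0%) for regions that FOXA2 overlapped and 4 of 33 (12.1%) for those it did not, and 15.7% and 9.16% over all genes.

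The 7 kept JUN regions lay at CDC20, SPC25, BUB1B, NDC80, SPC24 and TPX2, and each scored lower under siFOXA2. The BUB1B window region, the strongest at a member, scored 1630 under siNC and 434 under siFOXA2. The TPX2 regions scored 891 and 765, then 137 and 175. NDC80 went from 626 to 170 at the same intronic site as FOXA2, SPC24 from 587 to 171, CDC20 from 469 to 126 and SPC25, at its repeated-sequence site, from 196 to 69. The median ratio of 0.27 stood beside 0.26 over all genes. The absent regions were not all weak. The strongest one lay in the ECT2 window at the NCEH1 promoter, with a score of 621, and SPC24 lacked one of 589. The CEP55 regions that were absent scored from 84 to 521. The only region that siNC lacked was one in NUF2, scoring 19. The full siFOXA2 list was shorter, with 4081 regions against 23890. With equal numbers of the strongest regions 50% of the siNC regions were kept and the ratio of counts was 0.67.

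**Figure D4:**
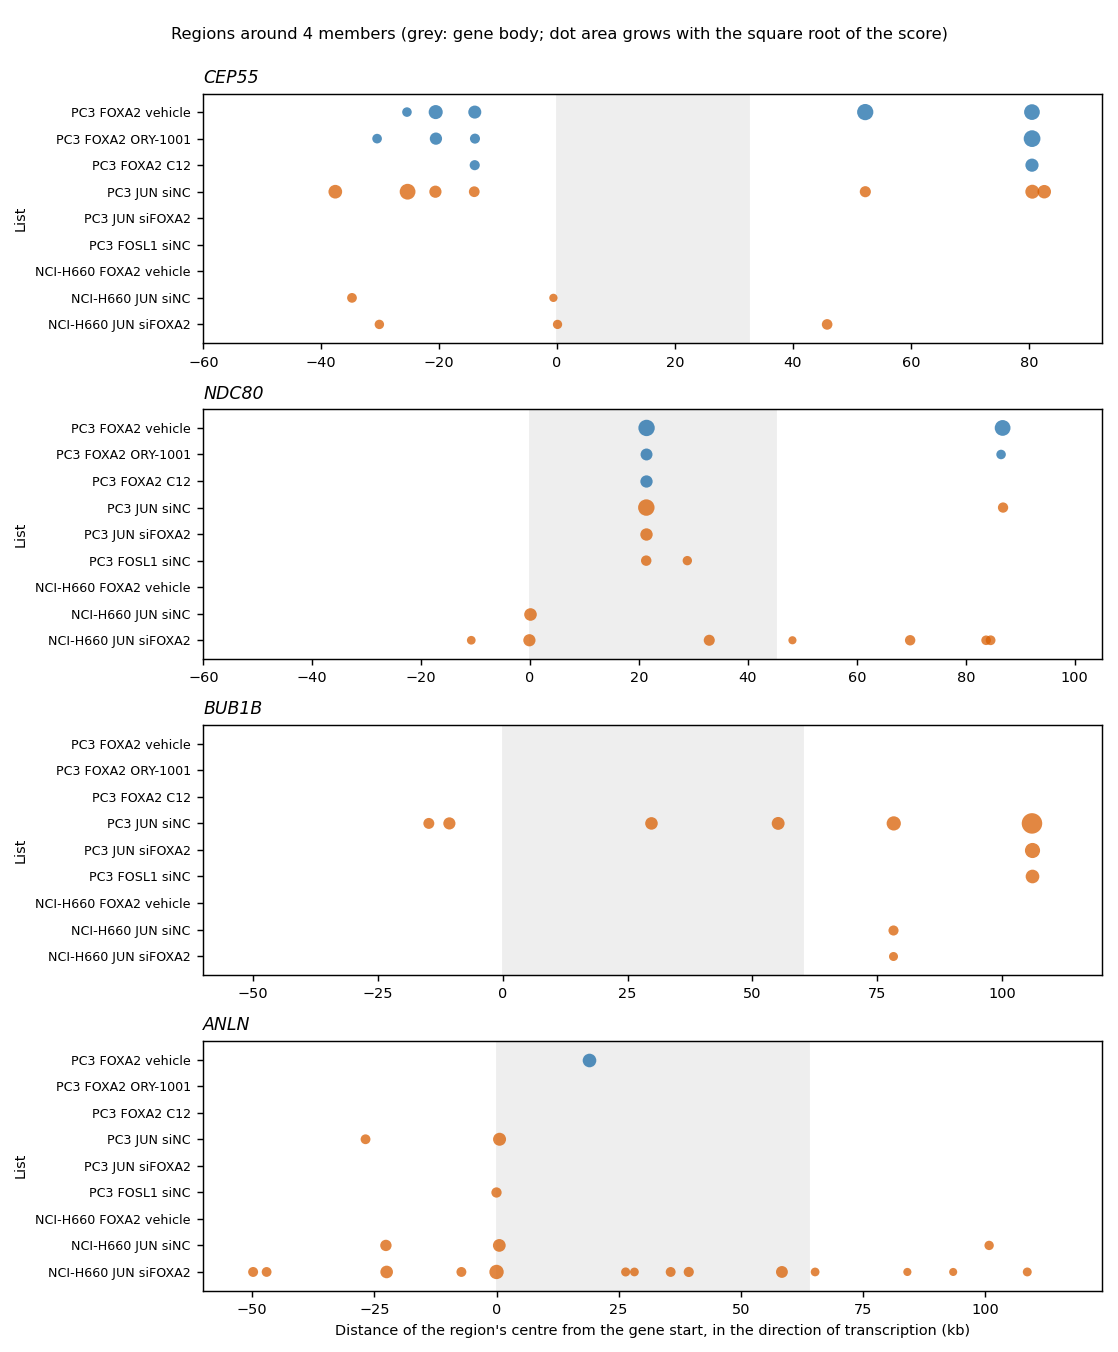
Regions of 9 lists along CEP55, NDC80, BUB1B and ANLN, placed by the distance of the region's centre from the gene start in the direction of transcription (kb), with FOXA2 in blue, JUN and FOSL1 in orange, the gene body in grey and dot area growing with the square root of the score. No JUN dot remains at CEP55 in the PC3 siFOXA2 row, 1 remains at NDC80 and 1 at BUB1B, and the NCI-H660 siFOXA2 row at ANLN holds 12 distal dots.

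FOSL1 had few regions at the members in PC3. The siNC list held 9, at SPC25 with a score of 305, BUB1B with 271, KNL1 with 129 and 42, CENPF with 98, NDC80 with 73 and 40, ANLN with 67 and CDK1 with 26. The central window was repeated sequence in 2 of the 9 (22.2%, 6.32 to 54.7), the strongest one at SPC25 among them. Those at ANLN and KNL1 (the one scoring 42) lay at the own promoter. None of the 9 was kept under siFOXA2, which allows a share of up to 29.9% by the Wilson interval, and 4.75% were kept over all genes. The siFOXA2 list held 4, at ECT2 with 78, CEP55 with 31, CCNB1 with 22 and KNL1 with 21. Distal FOSL1 regions were fewer at 5 of 8 members and more at 3, against 60.2% and 32.4% of all genes tested.

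In NCI-H660 JUN lay at the own promoters of more members than in PC3. The siNC list held 50 regions at members, 13 of them at own promoters and 16 at other promoters, and 21 were distal, at 15 genes (39.5%, all genes 43.7%). The own promoters were those of 13 of 38 members (34.2%, 21.2 to 50.1), an interval that holds the 22.3% of all genes and lies above that of PC3 (2.72 to 20.8). They were those of 33 of 71 other mitotic genes (46.5%, 35.4 to 58.0) and 15 of 48 replication genes (31.3%). PRC1, which bundles the central spindle, had the strongest with a score of 471. DSN1 followed at 202, ANLN at 196 and NDC80 at 185, and ECT2 scored 72, TTK 68, AURKA 58, NUF2 56 and CDK1 24. CEP55, FOXM1, KIF11 and CDCA8 had weak ones of 19, 19, 16 and 14. Open chromatin covered 47 of the 50 (94%, all genes 89.2%) and H3K4me2 43 (86%, all genes 72.9%), while FOXA2 overlapped 6 (12%, all genes 20.1%). The AP-1 word stood in 6 of 50 central windows (12%, all genes 14.2%). These were 6 of the 28 regions kept under siFOXA2 (21.4%, 10.2 to 39.5, all genes 15.0%) and 0 of the 22 absent ones (upper limit 14.9%, all genes 13.5%), so both intervals hold the value of all genes.

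Between the lines, 10 of the 53 PC3 JUN regions at members (18.9%, 10.6 to 31.4) were overlapped in NCI-H660, against 13.2% over all genes. Distal JUN regions were at least 2-fold fewer in NCI-H660 at 13 of 25 members and more at 6, against 52% and 28.7% of all genes tested. CEP55 went from 6 to 1, CENPF and BUB1B from 5 to 0 and SPC24 from 5 to 1, and KIF2C, a microtubule-depolymerizing kinesin, from 1 to 3. The TPX2 region shown above scored 765 in PC3 and 1719 in NCI-H660.

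Under siFOXA2 the NCI-H660 JUN list held more regions at the members, not fewer, and most of the added ones were weak. The count went from 50 to 127, a ratio of 2.54 (1.82 to 3.60), as the whole list went from 18401 to 59452. Distal regions were at least 2-fold more at 20 of 28 members and fewer at 3, against 69.3% and 11.2% of all genes tested. CENPF went from 0 to 12 distal regions and ANLN from 1 to 12, TPX2 from 3 to 8 and NUF2 from 0 to 7. AURKA, BUB1 and ECT2 went from 0 to 5, NDC80 from 0 to 4, CDK1 and CCNB2 from 1 to 4 and TTK from 1 to 3. By role, the siFOXA2 list held 27 distal regions at kinetochore genes, 19 at cytokinesis genes, 15 each at kinase and motor genes, 10 at checkpoint genes, 3 at chromosome structure genes and 1 at passenger complex genes. The roles differ in number of genes. Per 100 kb the values were, in the same order, 1.90, 4.07, 2.17 and 1.78, 1.30, 0.58 and 0.22, against 1.67 over all genes. Differences between roles were not tested. The 3 members with fewer were SPC25, BUB3 and BIRC5. All 5 genes chosen by the study had more.

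The 99 regions that siNC lacked had a median score of 33 (all genes 34), and 46 of them (46.5%, 37.0 to 56.2, all genes 54.1%) lay in no other list. A score of 100 was reached by 1 of the 99, and by 791 of 36232 over all genes. Only 26 of the 99 (26.3%, all genes 23.7%) lay in open chromatin of NCI-H660 under vehicle, against 28 of the 28 kept regions (all genes 93.6%). The CENPF regions scored 16 to 53, the NUF2 regions 21 to 54 and the ANLN regions 16 to 138. In 26 of the 99 (26.3%, 18.6 to 35.7) the central window was repeated sequence, against 1 of the 28 kept. At a score of at least 100 the count went from 22 to 14, a ratio of 0.64 (0.30 to 1.30) that points the other way with 1 inside its interval.

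Of the 50 siNC regions 28 were kept (56.0%, 42.3 to 68.8), against 50.1% over all genes, and 19 of the 28 scored lower, with a median ratio of 0.69 (all genes 0.81). The TPX2 regions scored 1719 and 1268 under siNC and 1390 and 293 under siFOXA2. SPC24 went from 833 to 521, KIF23 from 595 to 359 and KIF2C from 349 to 218 and from 434 to 128. At own promoters the scores went both ways. PRC1 went from 471 to 329, NDC80 from 185 to 159, DSN1 from 202 to 131 and ECT2 from 72 to 49, while ANLN went from 196 to 341, AURKA from 58 to 170 and CDK1 from 24 to 45. Of the 13 own-promoter regions 9 were kept, and 15 members (39.5%, all genes 37.9%) had one under siFOXA2.

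**Figure D5:**
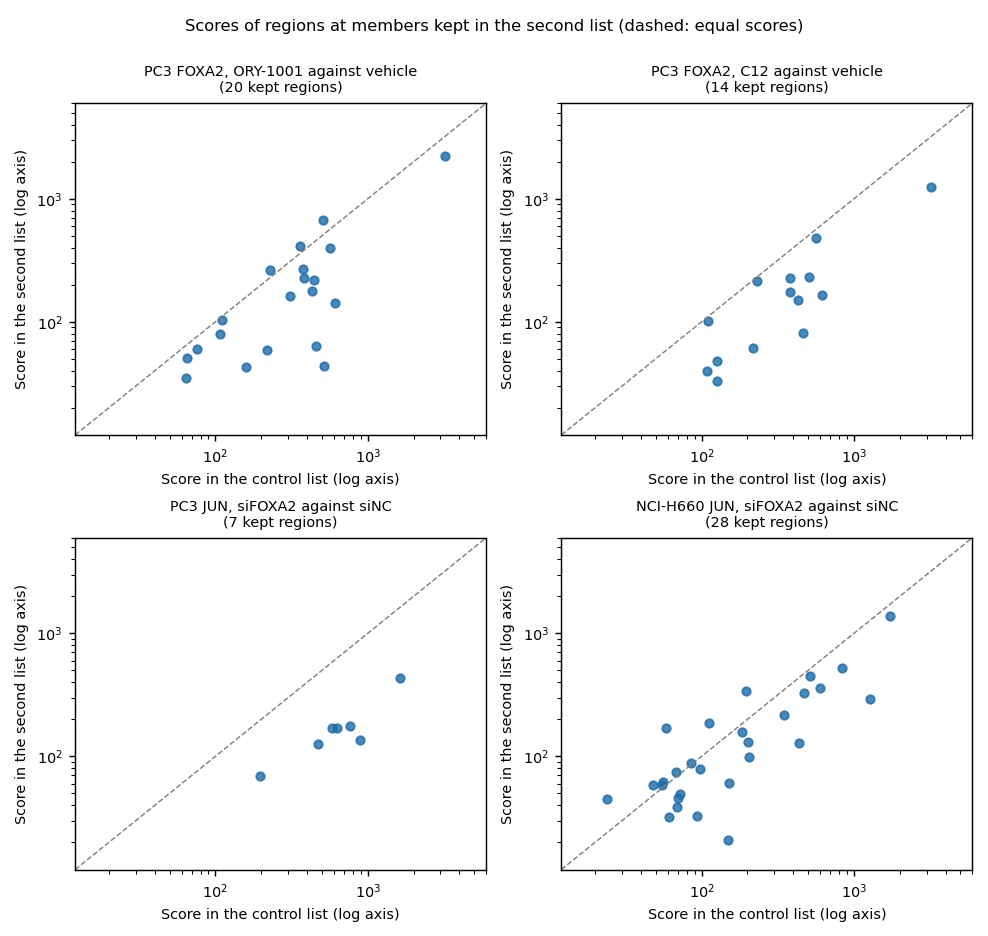
Score of each kept region at the members in the second list against its score in the control list (both log axes), with the dashed line at equal scores, for PC3 FOXA2 under ORY-1001 and C12 and for JUN under siFOXA2 in PC3 and NCI-H660. All 14 C12 dots and all 7 PC3 JUN dots lie under the line, against 17 of 20 for ORY-1001 and 19 of 28 for NCI-H660 JUN.

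JUN in parental LNCaP was scarce at the members. The siNC list held 5 regions, at BUB3, CENPA, SPC25, TPX2 and the PRC1 promoter, and the siFOXA1 list 3, at SPC25 with a score of 112, TPX2 with 144 and, in the AURKB window, the CTC1 promoter with 57. The SPC25 and TPX2 regions were kept, 2 of 5 (40%, all genes 39.8%), and the SPC25 one is again the repeated-sequence site. With 5 regions no difference was detectable.

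The LNCaP lines that carry FOXA2 had JUN at many mitotic promoters, in longer lists than those of parental LNCaP. The JUN lists held 23994 regions in FOXA2OE and 47505 in FOXA2K265R, against 2421 under siNC and 1964 under siFOXA1 in parental LNCaP. Line, peak-calling folder and list length cannot be told apart here. FOXA2OE held 78 JUN regions at members, with own-promoter regions at 15 members (39.5%, 25.6 to 55.3, all genes 26.3%), and FOXA2K265R held 108, at 19 members (50%, 34.8 to 65.2, all genes 40%). Both intervals hold the value of all genes. The promoter scores, FOXA2OE then FOXA2K265R, were 454 and 716 at PRC1, 183 and 376 at ANLN, 129 and 208 at NDC80, 92 and 268 at NUF2, 65 and 151 at CENPE, and 72 and 77 at KIF11. KIF23 had 60 and 85 and MAD2L1 54 and 62, so all of these were higher in FOXA2K265R, while BUB3 was lower, with 58 and 32. Over the kept regions the median ratio was 1.13, against 1.00 over all genes.

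From FOXA2OE to FOXA2K265R 26 of 78 regions were kept (33.3%, 23.9 to 44.4), against 36.1% over all genes, and the count was 1.38 (1.03 to 1.88) times as high. The lowest score was 30 in the FOXA2OE list and 23 in the FOXA2K265R list, so the counts were taken at different minimum scores. Distal regions were at least 2-fold more at 18 of 34 members and fewer at 9, against 49.5% and 24.8% of all genes tested. KIF11 went from 2 to 6, ECT2 from 3 to 6, CEP55 and ANLN from 0 to 4, and MKI67, the proliferation antigen Ki-67, from 1 to 4. BUB1B and BUB3 went from 2 to 4, CCNB1 from 0 to 3, KIF23 from 1 to 3, and KIF2C from 4 to 2. Repeated sequence filled the central window of 19 of 78 regions (24.4%) in FOXA2OE and 35 of 108 (32.4%, 24.3 to 41.7) in FOXA2K265R, against 1 of 53 in the PC3 siNC list. The AP-1 word stood in 1 of 78 windows (1.28%) and 4 of 108 (3.70%), against 2.48% and 4.12% over all genes. With equal numbers of the strongest regions the ratio was 0.71, so its direction turned.

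Every member had an open and marked promoter in each list of chromatin state. All 38 own promoters held a region in PC3 ATAC-seq (all genes 76.2%), NCI-H660 ATAC-seq (73.4%), PC3 H3K27ac (66.9%) and NCI-H660 H3K4me2 (73.2%). All 48 replication genes and all 71 other mitotic genes also had one in each, so this was not particular to the members. The lines differed in the number of distal regions, at the members as over all genes. PC3 held 435 distal ATAC regions at members and NCI-H660 157, against 259458 and 108185 over all genes. At least 2-fold fewer were counted in NCI-H660 at 30 of 38 members and more at 1, against 66.7% and 3.07% of all genes. The NCI-H660 list was shorter, with 99959 regions against 210960, and the part of list length was not tested. The ratio at equal numbers of the strongest regions is given at the end. CENPF went from 22 to 5 and NDC80 from 18 to 4, and TTK, the MPS1 checkpoint kinase, was the exception, from 1 to 4. Of 567 PC3 regions 187 were kept (33.0%, 29.2 to 37.0), above the 24.3% of all genes, with 90.4% kept at own promoters (all genes 73.5%) and 16.3% among distal regions (all genes 16.5%).

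ECT2 stood out among the members' own promoters bound by a factor. Of the 18 lists of FOXA2, JUN or FOSL1 it had a region at the own promoter in 11, which include all 7 FOXA2 lists of PC3 and NCI-H660. ANLN and KIF11 had one in 6 and PRC1 in 5, and CENPE, NDC80, NUF2, BUB3, AURKA and FOXM1 in 4 each. CENPF, BUB1, CDC20, BIRC5, CCNB1, ERCC6L and TOP2A had none in any of the 18. These were all genes with an open promoter in both lines. Several of the 18 lists share a factor and a line, and no such count over all genes is given here.

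The promoters of KIF11, PRC1 and ANLN are shown because a factor lay there in 5 or 6 of the 18 lists, the most after ECT2. Each is the 150 bases before the start, 5′ to 3′ along the gene, from RefSeq (GRCh38.p14), with CCAAT or TTTGAA in capitals on either strand (ATTGG and TTCAAA on the other).
KIF11: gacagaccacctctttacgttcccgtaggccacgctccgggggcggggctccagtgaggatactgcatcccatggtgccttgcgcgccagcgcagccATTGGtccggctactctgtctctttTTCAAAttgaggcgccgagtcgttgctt
PRC1: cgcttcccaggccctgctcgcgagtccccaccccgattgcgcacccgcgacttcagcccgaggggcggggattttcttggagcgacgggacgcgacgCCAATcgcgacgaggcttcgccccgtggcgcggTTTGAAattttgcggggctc
ANLN: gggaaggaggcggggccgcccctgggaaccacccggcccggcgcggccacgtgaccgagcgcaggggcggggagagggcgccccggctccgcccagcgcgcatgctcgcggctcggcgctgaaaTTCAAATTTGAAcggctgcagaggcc
KIF11 and PRC1 held a CCAAT and a TTTGAA each, and ANLN 2 adjoining TTTGAA words on opposite strands. Promoter sequence (250 bases before to 50 after the start) was matched for 31 of 38 members. CCAAT stood in 24 of 31 (77.4%), against 36.6% of all promoters, and TTTGAA in 22 of 31 (71.0%, 53.4 to 83.9), against 12.1% of all, 54.2% of other mitotic genes and 4.76% of replication genes. The AP-1 word stood in 0 of 31 promoters (3.68% of all) and a forkhead word in 6 of 31 (19.4%, 19.0% of all). The absence of a match says only that these letters are not in these windows.

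In the bound regions the shares of both words differed little between the members and all genes. Of the PC3 FOXA2 regions at members 34 of 45 (75.6%) held a forkhead word (all genes 78.3%) and 11 (24.4%) an AP-1 word (all genes 27%). In NCI-H660 11 of 15 FOXA2 regions (73.3%) held a forkhead word (all genes 77.6%) and 1 (6.67%) an AP-1 word (all genes 6.76%). Under ORY-1001 the forkhead share at members was 14 of 27 (51.9%, 34.0 to 69.3), against 63.3% over all genes of that list. These intervals hold the value of all genes. Members were below all genes, beyond their interval, for the forkhead word in NCI-H660 JUN regions, at 7 of 50 members' regions (14%, 6.95 to 26.2) against 26.6%. The same held in NCI-H660 open regions for the forkhead word, at 69 of 265 (26.0%, 21.1 to 31.6) against 32.4%, and for the AP-1 word, at 6 of 265 (2.26%, 1.04 to 4.85) against 5.18%. These shares pool promoter and distal regions, and the part of that mix in the differences was not tested.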

How the data were processed

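ChIP-seq and ATAC-seq samples of PC3, NCI-H660 and LNCaP gave 22 lists of regions. Per the labels and the study's methods, the authors aligned reads to hg19 with BWA 0.7.17-r1188, used SAMtools 1.9 and FastQC 0.11.9, and called regions with MACS2 2.1.4. The settings, the control sample, pooling and read depth are not given in the sources used here, so depth is unknown. The deposited score was read as 10 times the negative log10 of the q-value from its minimum of 13 in 17 lists, and 2 lists had no score. Groups were taken from the labels.

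Python 3.11.15, pandas 2.3.3, numpy 2.4.6 and scipy 1.17.1 were used. Regions were counted for each of 20162 protein-coding genes of GENCODE 44 lifted to hg19, and all of them served as background in place of random genes. The scripts were tested on simulated data. Shares have Wilson intervals and counts exact Poisson ones, and neither allows for regions that depend on each other. Motif words were searched on both strands in the central 200 bp, and 25-base pieces were looked up in hg19. That lookup was chosen after the values were seen. RefSeq promoters (GRCh38.p14) matched 31 of 38 members. KNL1, BUB3, TTK, BIRC5, AURKA, TPX2 and FOXM1 had no entry.

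All members could be named. Given in full were the 5 genes chosen by the study, members with a bound own promoter under vehicle or siNC, those with the most distal FOXA2 regions and those with a 2-fold difference and at least 3 regions in the longer list. Members and lists were chosen with earlier results of these data known. Alternatives were a score of at least 100, equal numbers of the strongest regions, windows of 10 and 100 kb, a promoter of 2 kb, a 50% overlap, regions in at least 17 lists left out, and the other FOXA2 ChIPs in place of vehicle. Some regions near members are not reported here.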

Additional observations from a re-analysis of the deposited data

Results flagged for a closer look

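JUN regions at the 38 members differed in direction between lines under siFOXA2. In PC3 the count under siFOXA2 was 0.151 of that under siNC, 8 against 53 regions, and in NCI-H660 it was 2.54, 127 against 50. The difference between the lines was not tested, since each line has 1 list per siRNA. The NCI-H660 list as a whole went from 18401 to 59452 regions and the PC3 list from 23890 to 4081. At a score of at least 100 the NCI-H660 count at members went from 22 to 14 and the PC3 count from 38 to 6, so both lines then had fewer. Of the 99 NCI-H660 regions that siNC lacked, 26 had a central window of repeated sequence and 26 lay in open chromatin of that line. The part of list length and repeated sequence in the difference was not tested.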

How the results depend on the processing

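No paired analysis was possible because the groups hold 1 list each, and for the same reason no replicate could be left out. The score filter and equal numbers were not run for the LNCaP siFOXA1 comparison, which has a list without scores, and leaving out regions present in at least 17 lists changed nothing, since no member region is in so many. Of the comparison values, 94 kept their side and size, 30 moved and 5 turned. Some values could not move by construction, and these count as having kept their side and size. They are the values with widely shared regions left out, and the ratios of counts under the stricter overlap, which do not use overlap. The 94 is therefore not a measure of how stable the values were. Why values moved or turned was not tested, and the equal-number setting fixes list length by construction.

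With equal numbers of the strongest regions, the kept share became 62.5% for ORY-1001 and 56.3% for C12 in PC3, 50% for JUN under siFOXA2 in PC3, 42% for JUN under siFOXA2 in NCI-H660 and 50.3% for ATAC between lines. The ratio of counts turned to 1.12 for ORY-1001, 1.06 for C12, 0.80 for NCI-H660 JUN and 0.71 for FOXA2K265R, and moved to 0.67 for PC3 JUN, 0.79 for FOXA2 between lines and 0.84 for ATAC. At a score of at least 100 the ratio turned to 0.64 for NCI-H660 JUN and moved to 0.00 for FOSL1, 0.58 for JUN between lines and 0.63 for ATAC, and the share became 55.6% for FOXA2K265R, 44% for ATAC and 12.5% for NCI-H660 FOXA2 with JUN. With a 50% overlap the shares were 42% for NCI-H660 JUN, 23.1% for FOXA2K265R, 19.6% for ATAC and 13.3% for NCI-H660 FOXA2 with JUN. A 10 kb window gave 30.4% for ORY-1001 and 37.4% for ATAC, and turned the density ratio of distal PC3 ATAC regions from 1.10 to 0.89. With the other FOXA2 ChIPs in place of vehicle the kept shares were 12.2% and 13.7% for ORY-1001 and 7.22% and 8.50% for C12. The ratios were 0.15 and 0.18 for ORY-1001, 0.094 and 0.11 for C12, and 0.083 and 0.098 for FOXA2 between lines. The members' distal density lay above that of all genes in 15 of 22 lists, and in 12 to 17 under the other settings. In the full lists the interval excluded 1 only for the other FOXA2 ChIPs (1.05 to 1.45 and 1.13 to 1.59) and PC3 ATAC (1.0002 to 1.21). Several lists share a line or a factor, so they do not count as separate evidence.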
